A study of Mus musculus with 15 samples.

Results

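RNA from the cortex of 5XFAD mice at 12 months of age was compared with RNA from the cortex of non-transgenic (WT) mice of the same age, across all genes. The comparison holds 5 of the study's 15 sequencing libraries, chosen by the genotype and age in their labels: 3 from 5XFAD (replicates 1, 2 and 3) and 2 from WT (replicates 2 and 3). The other 10 libraries, of both genotypes at 3 and 6 months, helped to estimate the spread and served for a comparison of ages at the end. The strain given for all animals is C57BL/6J. 5XFAD mice express transgenes that hold familial Alzheimer's disease mutations and develop amyloid deposits; the WT animals carry none. The transgenes are driven by a Thy1 promoter, which is active in neurons, so they are expressed where that promoter is active and not where the endogenous genes are. The labels do not say that replicates are separate animals. By sex-linked transcripts 5XFAD replicate 1 comes from another animal than replicates 2 and 3; for samples of the same sex this is not given, so part of the spread behind the p-values may be technical.

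Amyloid plaques in mouse cortex are surrounded by microglia, the resident macrophages of the brain, and by reactive astrocytes. Microglia at plaques sense lipids and amyloid through the receptor TREM2, whose signal passes through its partner TYROBP to SYK and phospholipase C gamma, and take on a state known as disease-associated, with high expression of phagocytic, lysosomal and lipid genes. Astrocytes near plaques make more of the intermediate filament GFAP and release complement proteins, and interferon signalling adds a set of antiviral and antigen presentation genes.

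Total counts were 105.2 M and 115.3 M in the WT libraries and 155.1 M to 190.3 M in the 5XFAD libraries, so the 5XFAD samples were the deeper ones. Transcripts that mark cortical neurons were present in all 5 libraries, with Slc17a7, the vesicular glutamate transporter of excitatory neurons, at 1090 to 1560 CPM (counts scaled to a common library total). Xist, which is transcribed from the inactive X chromosome of females, was at 0.11 CPM in 5XFAD replicate 1 and at 266 to 460 CPM in the other 4, so that library is male and both WT libraries are female. Mbp, a myelin protein gene, was at 856 and 2090 CPM in WT and at 1770, 3810 and 3570 CPM in 5XFAD replicates 1, 2 and 3. Drd2, which encodes a dopamine receptor of striatal neurons, stood at 36.5 CPM in 5XFAD replicate 3 and at 8.44 CPM or less in the others. In the rest of the text CPM are per library scaled by TMM and are not corrected for gene length, so levels are compared between samples and not between genes. In bulk tissue, more cells of a type and more RNA per cell cannot be told apart.

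The transgene promoter checked the labels. Thy1, a surface glycoprotein gene whose sequence is part of the transgenes, was at 681 and 697 CPM in WT replicates 2 and 3 and at 2616, 2475 and 2609 CPM in 5XFAD replicates 1, 2 and 3. The groups were far apart and the spread within each was small. The log2 fold change was 1.90 ± 0.13 (SE), with an adjusted p of 2.38e-05 in edgeR's quasi-likelihood test, which is used throughout. App, the amyloid precursor gene, was at 1700 and 1924 CPM in WT and at 2044, 2052 and 1899 CPM in 5XFAD, so the groups overlapped and the gene did not pass (log2 fold change 0.14 ± 0.10, adjusted p 0.499). How many reads of the human transgenes were counted under the mouse genes is not given in the sources used here. Bace1, which encodes the beta-secretase of amyloid processing, had a log2 fold change of 0.05 ± 0.06 and was not called.

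Expression differed between the genotypes mostly in one direction. Of 21555 genes tested, edgeR called 659 at an adjusted p under 0.05, of which 590 were higher in 5XFAD (2.74% of the genes tested) and 69 lower (0.32%). Among the 590 higher genes 398 differed at least 2-fold, against 10 of the 69 lower ones. At an unadjusted p under 0.05 in the same test, 2637 of the 21555 genes were higher and 1362 lower. Counts of list members at an unadjusted p are to be read beside these numbers. The values of the groups did not overlap for any of the 659 genes, but this was also the case for 4674 higher and 3724 lower genes among all those tested. The numbers of calls leaned on single libraries: 22 higher and 0 lower genes were called without WT replicate 2, 26 and 6 without WT replicate 3, 867 and 156 without 5XFAD replicate 1, 230 and 5 without 5XFAD replicate 2, and 273 and 21 without 5XFAD replicate 3. All 590 and all 69 genes kept their direction in each of these fits. With groups that did not overlap this was all but fixed in advance, so it adds no support for the calls. A model of the 12-month libraries alone called 524 higher and 46 lower, of which 423 and 19 were among the 590 and the 69 (71.7% and 27.5% of them). Of 131 called genes named by rule, 119 and 117 lost their call without WT replicate 2 or 3, 7, 47 and 40 lost it without 5XFAD replicate 1, 2 or 3, and 32 lost it with the 12-month libraries alone.

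**Figure D1:**
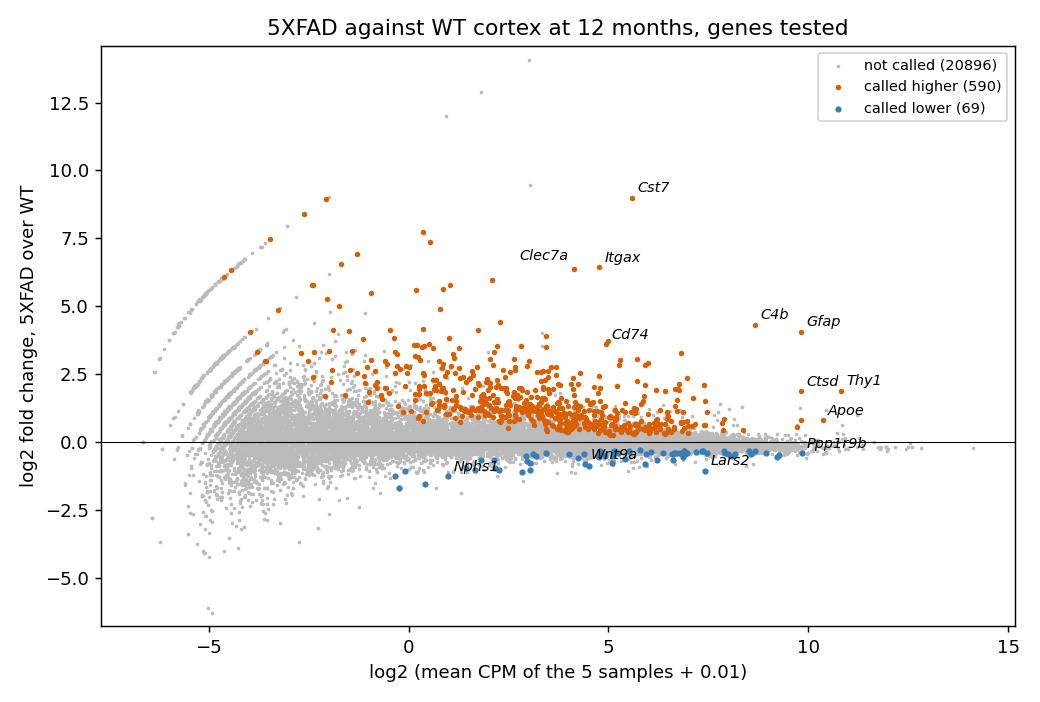
Each point is 1 of the 21555 genes tested, with log2 of its mean CPM over the 5 samples (plus 0.01) on the horizontal axis and the log2 fold change of 5XFAD over WT at 12 months on the vertical axis. The 590 genes called higher (orange) reach up to Cst7 at 8.99, while the 69 called lower (blue) lie below the zero line across a wide range of levels, mostly by less than 2-fold; the uncalled points at the very top are Y-linked genes of the male library.

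Within the 5XFAD group, replicate 1 was the mildest. It had the lowest of the 3 values for 482 of the 590 higher genes (81.7%), against 37.3% of all genes tested, and the highest for 41 of the 69 lower genes (59.4%), against 31.7%. The median log2 ratio of the higher genes to the WT mean was 1.09, 1.39 and 1.46 in replicates 1, 2 and 3. Replicate 1 is also the male library and the one with the least Mbp among the 5XFAD samples, and which of these goes with the milder values was not tested. With sex as a covariate all 590 and all 69 genes were called again, within 981 and 181. With 5XFAD reduced to replicate 1, an alternative chosen after seeing the data, 13 genes were called higher and 0 lower, on 1502 genes at an unadjusted p under 0.05.

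Among called genes averaging 1 CPM or more, Cst7, Itgax and Clec7a, which are known from microglia at plaques, ranked 1, 4 and 5 by fold, with Ctse and Tnfsf8, a ligand of the tumour necrosis factor family (7.37 ± 1.05), between them. Cst7, which encodes cystatin F, an inhibitor of lysosomal cysteine proteases, was at 0.284 and 0.0192 CPM in WT replicates 2 and 3 and at 59.8, 82.6 and 96.9 CPM in 5XFAD replicates 1, 2 and 3. Itgax, the integrin CD11c, went from 0.487 and 0.557 CPM to 29.3, 52.3 and 54 CPM. Clec7a, the phagocytic lectin receptor dectin-1, went from 0.328 and 0.365 CPM to 19.9, 32.8 and 34.1 CPM. All 3 genes were close to silent in WT cortex and rose in every 5XFAD sample, with replicate 1 the lowest. Their log2 fold changes were 8.99 ± 0.91, 6.44 ± 0.65 and 6.38 ± 0.62, with adjusted p of 0.00162, 0.0013 and 0.00103.

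The receptor complex known to act upstream of this state rose as well. Trem2 was at 13 and 13.1 CPM in WT and at 66.7, 104.9 and 120.5 CPM in 5XFAD replicates 1, 2 and 3 (log2 fold change 2.90 ± 0.38, adjusted p 0.00505). Tyrobp, its signalling adaptor, moved in parallel, from 12.5 and 13.2 CPM to 61.7, 96 and 117.4 CPM (2.83 ± 0.38, adjusted p 0.00509). The list of TREM2 signalling, which includes both genes, had 8 of 16 tested members called higher and 0 lower, among them Inpp5d, the phosphatase SHIP1 (1.00 ± 0.20), Pik3cg, a phosphoinositide 3-kinase catalytic subunit (1.68 ± 0.32), and Btk, a tyrosine kinase (1.28 ± 0.27). Syk, the kinase that docks to TYROBP, and Plcg2, the phospholipase, had log2 fold changes of 0.51 ± 0.20 and 1.09 ± 0.28 and were not called, at adjusted p of 0.197 and 0.0584. The 5XFAD values of Syk, at 7.92, 9.46 and 11.2 CPM, lay just above its WT values of 7.03 and 6.32 CPM.

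Of 28 disease-associated microglia genes 25 were called higher and 0 lower, with a median log2 fold change of 1.87 beside 0.02 over all genes tested. Lyz2, the lysozyme of macrophages, and Cd68, a lysosomal membrane protein of phagocytes, rose by 3.07 ± 0.43 and 2.84 ± 0.41. Apoe, the lipid carrier apolipoprotein E, was already abundant in WT, at 888 and 927 CPM, and reached 1250, 1659 and 1844 CPM in 5XFAD (0.80 ± 0.19, adjusted p 0.0383). Spp1, which encodes osteopontin, spread widely in 5XFAD, at 28.3, 65.4 and 86.9 CPM against 6.11 and 8.58 CPM (3.04 ± 0.72, adjusted p 0.0494). The 3 members that were not called were Fth1, the ferritin heavy chain (0.62 ± 0.17, adjusted p 0.0655), Ank (0.15 ± 0.10) and Timp2 (0.02 ± 0.19). Without WT replicate 2 or 3 the number of disease-associated genes called was 3 or 5, and with 5XFAD reduced to replicate 1 it was 4; for TREM2 signalling it was 0 in all 3 cases, and 3 without 5XFAD replicate 2 or replicate 3. Apoe was not called without either WT library, 5XFAD replicate 2 or 5XFAD replicate 3, whereas Cst7, Itgax and Clec7a were called in each of 15 alternatives.

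**Figure D2:**
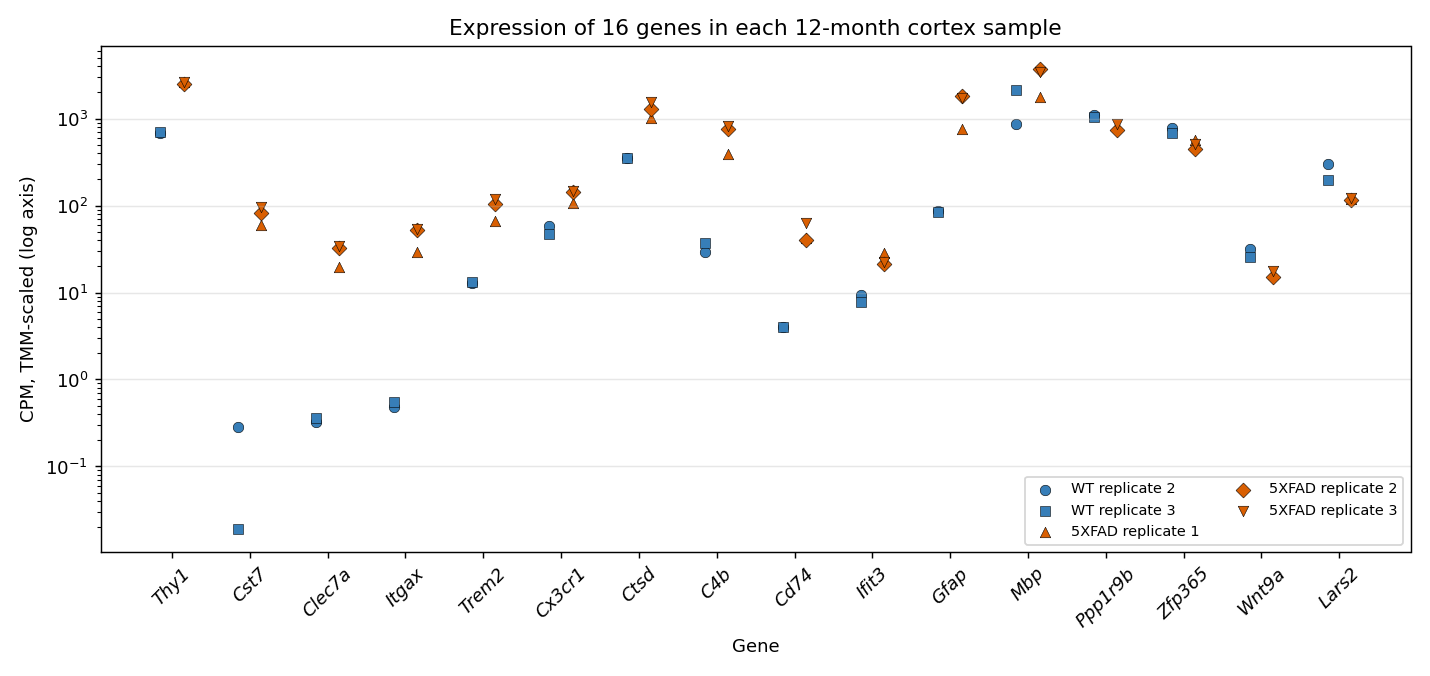
Expression of 16 genes in CPM on a log axis, with 1 point per 12-month sample, WT in blue and 5XFAD in orange, and a symbol for each replicate. From Thy1 to Gfap the 5XFAD points lie above the WT points, for Mbp the groups overlap, and for Ppp1r9b, Zfp365, Wnt9a and Lars2 the 5XFAD points lie below.

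Genes of resting microglia were higher rather than lower. Of 23 tested homeostatic genes 10 were called higher and 0 lower, with a median of 0.87. Cx3cr1, the receptor for neuronal fractalkine, went from 58.3 and 47.6 CPM to 107.6, 144.4 and 148.3 CPM (1.33 ± 0.25, adjusted p 0.0166). Csf1r, the growth factor receptor on which microglia depend, also rose (1.11 ± 0.23). The groups did not overlap for either gene. The purinergic receptor P2ry12 had 37 and 33.9 CPM in WT against 49.1, 59.7 and 64.5 CPM in 5XFAD and was not called (0.70 ± 0.19, adjusted p 0.0683), nor was Tmem119, a surface protein of unknown function (0.33 ± 0.29, adjusted p 0.592). Crybb1, a crystallin gene expressed by microglia, was the 1 member below zero, at 4.06 and 3 CPM in WT against 1.95, 2.27 and 2.42 CPM in 5XFAD (log2 fold change -0.67 ± 0.19, adjusted p 0.0843); DESeq2 called 1 homeostatic gene lower. Homeostatic calls numbered 0 without either WT library and 4 and 3 without 5XFAD replicates 2 and 3, against 17 without 5XFAD replicate 1.

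Among transcription factors of microglia and macrophages 9 of 24 were called higher and 0 lower, with a median of 0.66. Irf8, an interferon regulatory factor of the myeloid lineage, went from 6.01 and 5.06 CPM to 19.4, 24.4 and 28.3 CPM (2.12 ± 0.33). Runx1, which acts in blood cell development, went from 0.771 and 0.634 CPM to 3.02, 3.61 and 4.15 CPM (2.35 ± 0.37). Spi1, the gene of PU.1, the master regulator of microglia, rose less, from 3.76 and 2.62 CPM to 6.36, 6.99 and 8.47 CPM (1.19 ± 0.28, adjusted p 0.0352). Without either WT library the number called was 0, and without 5XFAD replicate 2 or 3 it was 4.

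Surface receptors of the innate immune system followed. Of 24 pattern recognition and inflammasome genes 13 were called higher and 0 lower (median 1.56), of 14 Fc receptor and leukocyte integrin genes 8 (median 1.47), and of 26 cytokine and chemokine receptors 6 (median 0.90). Cd14, the co-receptor for bacterial lipopolysaccharide, was at 1.43 and 1.62 CPM in WT and 7.06, 10.5 and 11.1 CPM in 5XFAD (2.65 ± 0.38). Tlr2, a Toll-like receptor for lipoproteins, was at 1.93 and 0.941 CPM against 6.88, 8.33 and 10.7 CPM (2.59 ± 0.47). Fcgr2b, the inhibitory receptor for IgG, was at 3.64 and 3.3 CPM against 14.2, 21.4 and 22.1 CPM (2.47 ± 0.41). Replicate 1 again had the lowest 5XFAD value for all 3 genes, and no 5XFAD value reached down to WT. Csf3r, the receptor for granulocyte colony-stimulating factor, and Tgfbr2, the receptor for transforming growth factor beta, rose by 2.00 ± 0.30 and 1.43 ± 0.21 on the log2 scale. Calls in these lists were 0, 1 and 0 without WT replicate 2 and the same without WT replicate 3, 8, 5 and 4 without 5XFAD replicate 2, and 7, 6 and 4 without 5XFAD replicate 3.

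Genes of secreted immune signals included some of the steepest increases. Which cells these transcripts came from was not tested. Of 26 chemokine and cytokine genes 9 were called higher and 0 lower, with a median of 1.62. Ccl3, a chemokine that attracts monocytes and T cells, went from 0.0443 and 0.182 CPM to 6.42, 6.93 and 7.68 CPM (5.96 ± 0.62, adjusted p 0.00103). Ccl6, a chemokine of myeloid cells, went from 1.06 and 1.25 CPM to 14.6, 16.3 and 20.6 CPM (3.89 ± 0.43). Cxcl10, an interferon-induced chemokine, went from 0.177 and 0.048 CPM to 1.29, 2.44 and 2.46 CPM (4.18 ± 0.80). Csf1, a growth factor for microglia, showed a smaller change, with values of 26.8 and 30.7 CPM in WT and 54.5, 71.2 and 74.2 CPM in 5XFAD (1.21 ± 0.18). Il1rn, the antagonist of the interleukin-1 receptor, had 0 counts in both WT libraries against 98 in 5XFAD, at least 13.6-fold higher, and was not called (adjusted p 0.0596). That bound uses a floor of 3 counts over the group; the exact 95% counting interval reaches down to 10.9, and both cover counting error only. Calls in the list numbered 3 without either WT library, and Ccl3 and Ccl4, which encodes a closely related chemokine, were among the 7 named genes called in each of the 15 alternatives.

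Inhibitory immune receptors, which restrain immune cells, rose alongside the activating ones: 11 of 21 were called higher and 0 lower, with a median of 1.25. Pdcd1, the gene of the checkpoint receptor PD-1, went from 0.0089 and 0.115 CPM to 2.32, 3.44 and 4.38 CPM (5.78 ± 0.99, adjusted p 0.00984). Lag3, another checkpoint receptor, had 9.46 and 8.07 CPM in WT and 25, 37.1 and 43.9 CPM in 5XFAD (2.01 ± 0.29, adjusted p 0.00543). Cd33, a sialic acid receptor of myeloid cells, rose by 1.25 ± 0.23 (adjusted p 0.0128). Havcr2, the gene of TIM-3, and Cd274, the gene of the PD-1 ligand, rose by 1.53 ± 0.33 and 1.30 ± 0.24. The MS4A family, membrane proteins linked to Alzheimer's disease risk, had 0 of 6 tested members called by edgeR, 5 at an unadjusted p under 0.05 and 2 by DESeq2, with a median of 1.24 at levels of 2.26 CPM or less. Without either WT library 0 of the inhibitory receptors were called.

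Complement genes of the classical pathway rose. C1qa, C1qb and C1qc, the chains of C1q, lay between 33.5 and 41.9 CPM in WT and between 104.9 and 200.5 CPM in 5XFAD, and rose by 2.14 ± 0.37, 1.95 ± 0.36 and 1.96 ± 0.35. C4b, which is cleaved next in the cascade, was at 28.9 and 36.9 CPM in WT and at 390.9, 765.5 and 823.4 CPM in 5XFAD replicates 1, 2 and 3 (4.33 ± 0.50, adjusted p 0.00281). C3, on which all complement pathways meet, was at 0.204 and 0.413 CPM against 1.5, 6.28 and 8.35 CPM (4.13 ± 0.88, adjusted p 0.0269). Both C4b and C3 were lower in 5XFAD replicate 1 than in the other 5XFAD samples, yet above both WT values. C3 was not called in 7 of 15 alternatives, among them the 12-month libraries alone and the omission of either WT library or of 5XFAD replicate 2 or 3. In all, 10 of 22 complement genes were called higher and 0 lower, with a median of 1.26, among them C3ar1, a receptor for a cleavage product of C3 (2.57 ± 0.35). C4a (2.36 ± 0.37) is a near-identical copy of C4b, and how reads shared between them were counted is not given in the sources used here. Calls in the list numbered 0 and 1 when WT replicate 2 or 3 was left out and 7 without 5XFAD replicate 2 or 3.

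Lysosomal genes rose in part. Of 18 cathepsins and their inhibitors 13 were called higher and 0 lower (median 0.94). Ctsd, the main aspartic protease of lysosomes, went from 348 and 348 CPM in WT to 1014, 1272 and 1537 CPM in 5XFAD (1.87 ± 0.29, adjusted p 0.00761). Ctss, a protease that also trims the MHC class II invariant chain, went from 57.2 and 55.7 CPM to 169.8, 268.6 and 294.4 CPM (2.11 ± 0.32). Ctse, an aspartic protease of immune cells, rested on 1139 counts against 2 counts in WT, 238-fold more after scaling (95% counting interval, 65.6 to 1960). Of 39 other lysosomal hydrolases and membrane proteins 11 were called higher and 0 lower, with a median of 0.29, among them Npc2, a cholesterol carrier of the lysosome (1.16 ± 0.20), and Grn, the progranulin gene (1.13 ± 0.24). The vacuolar proton pump, which acidifies lysosomes and synaptic vesicles, did not follow: 17 of its 20 tested genes had negative log2 fold changes, with a median of -0.17. At an unadjusted p under 0.05, 6 of the 20 were lower and 2 higher, against 1362 and 2637 of all 21555 genes tested. Neither edgeR nor DESeq2 called any of them lower. The 1 called higher was Atp6v0d2, an isoform of macrophages and osteoclasts, at 0.0797 and 0.0384 CPM in WT and 1.84, 2.62 and 4.43 CPM in 5XFAD (5.62 ± 1.07, adjusted p 0.0188). Calls among cathepsins numbered 1 without either WT library and among the other lysosomal genes 0, with 6 of the latter without 5XFAD replicate 2 or 3. Atp6v0d2 was not called without either WT library or 5XFAD replicate 2.

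Lipid genes rose in part. Of 30 lipid handling genes 6 were called higher and 0 lower (median 0.43). Ch25h, which makes 25-hydroxycholesterol, was at 0.151 and 0.202 CPM in WT and 1.79, 2.05 and 2.32 CPM in 5XFAD (3.54 ± 0.69). Abca1, which exports cholesterol to apolipoprotein E, was at 21.7 and 19.1 CPM against 26.9, 60.6 and 52.3 CPM (1.20 ± 0.27), with replicate 1 close to WT. Lpl, a lipoprotein lipase, and Soat1, which esterifies cholesterol, rose by 1.32 ± 0.27 and 0.85 ± 0.15. In cholesterol synthesis 1 of 22 genes was called higher, Ebp, a sterol isomerase, at a log2 fold change of 0.35 ± 0.09, and the median was 0.14. Calls in the lipid list numbered 3 in a model of the 12-month libraries alone, 0 without either WT library and 1 and 2 without 5XFAD replicates 2 and 3, and Ebp was not called without any one of the 5 libraries.

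Interferon-stimulated genes were higher in all 5XFAD samples, the male replicate 1 included. Of 32 tested genes 23 were called higher and 0 lower, with a median of 1.35. All 32 were higher without overlap of the groups, as were 4674 of all 21555 genes tested. Ifit3, an antiviral RNA-binding protein gene, was at 9.45 and 7.74 CPM in WT and at 28.3, 21.5 and 22.5 CPM in 5XFAD replicates 1, 2 and 3 (1.49 ± 0.20, adjusted p 0.00355). Rtp4, a chaperone of receptors, was at 1.84 and 1.87 CPM against 5.14, 5.04 and 4.63 CPM (1.41 ± 0.21). Trim30a, an interferon-induced TRIM protein gene, was at 2.46 and 2.45 CPM against 8.97, 10 and 10.1 CPM (1.98 ± 0.26). Replicate 1 was thus the highest 5XFAD sample for some of these genes and the lowest for others. Usp18, which dampens interferon signalling, was at 1.19 and 1.14 CPM against 4.98, 4.5 and 4 CPM (1.95 ± 0.32). The list mean of log2 (CPM + 1) was 2.09 and 1.93 in WT and 3.05, 3.07 and 3 in 5XFAD replicates 1, 2 and 3, whereas for disease-associated microglia genes it was 4.56 and 4.57 against 6.21, 6.71 and 6.86. Calls in the interferon list numbered 2 and 0 when WT replicate 2 or 3 was left out and 14 without 5XFAD replicate 2; of the 15 alternatives Ifit3 was not called in 1, without WT replicate 3.

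The promoters of these genes are shown because more of them than of all promoters hold a known response element. Windows of 300 bases, from 250 before to 50 after each gene's start, were taken from RefSeq (GRCm38.p6) for 21 of the 32 genes. The interferon response element was searched as GAAA, any 2 bases, then GAAA, on both strands. It was present in 12 of these 21 windows (57.1%), against 943 of all 27025 windows (3.49%). In the runs below, written 5′ to 3′ on the gene's strand, capitals mark the element, which reads TTTC when it lies on the opposite strand. Ifit1, an antiviral RNA-binding protein gene (log2 fold change 1.5 ± 0.28), is shown at chr19:34640755-34640824 with both matches on the opposite strand. Bst2, which encodes the virus-tethering protein tetherin (1.81 ± 0.30), is shown at chr8:71537563-71537632 and has overlapping matches. Rsad2, which encodes viperin (1.19 ± 0.29), is shown at chr12:26456533-26456602. Isg15, a ubiquitin-like modifier (0.85, adjusted p 0.112, not called), is shown at chr4:156200857-156200926 and carries the longest run of the element shown.
Ifit1: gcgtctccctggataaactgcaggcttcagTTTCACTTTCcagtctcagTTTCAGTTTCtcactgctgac
Bst2: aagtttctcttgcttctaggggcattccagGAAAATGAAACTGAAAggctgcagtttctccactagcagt
Rsad2: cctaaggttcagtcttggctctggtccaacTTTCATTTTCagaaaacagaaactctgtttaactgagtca
Isg15: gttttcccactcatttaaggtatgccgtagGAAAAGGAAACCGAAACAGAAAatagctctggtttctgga
The matches are a description of letters and do not locate bound factors. Searches for motifs of the other groups found few matches. The PU.1 core GAGGAAGT was in 1 of 24 disease-associated microglia windows (4.17%, against 3.28% of all windows), and the lysosomal E-box TCACGTGA was in 2 of 32 lysosomal windows (6.25%, against 1.01%), those of Mcoln1 and Gla, genes of a lysosomal channel and of a galactosidase that were not called.

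Antigen presentation genes rose for both classes of MHC. Of 20 class I pathway genes 11 were called higher and 0 lower (median 0.72), and of 15 class II pathway genes 9 (median 1.89). B2m, the light chain of class I, went from 79.3 and 83 CPM to 196.4, 236.3 and 257.7 CPM (1.5 ± 0.19, adjusted p 0.00289). Cd74, the class II invariant chain, went from 4.04 and 3.98 CPM to 42.3, 40.3 and 62.9 CPM (3.60 ± 0.47, adjusted p 0.00505). H2-Aa and H2-Ab1, which form a class II molecule, rose by 3.50 ± 0.51 and 3.06 ± 0.48. The class I chains H2-D1 and H2-K1 rose less, by 1.57 ± 0.20 and 1.39 ± 0.23, and since H2 genes are near-identical copies the split of reads between them is uncertain. Nlrc5, the transactivator of class I genes, was at 2.12 and 1.61 CPM in WT and 6.9, 8.82 and 6.67 CPM in 5XFAD (2.00 ± 0.35). Class I calls numbered 1 without either WT library and 7 without 5XFAD replicate 2 or 3, and class II calls 0 without either WT library.

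**Figure D3:**
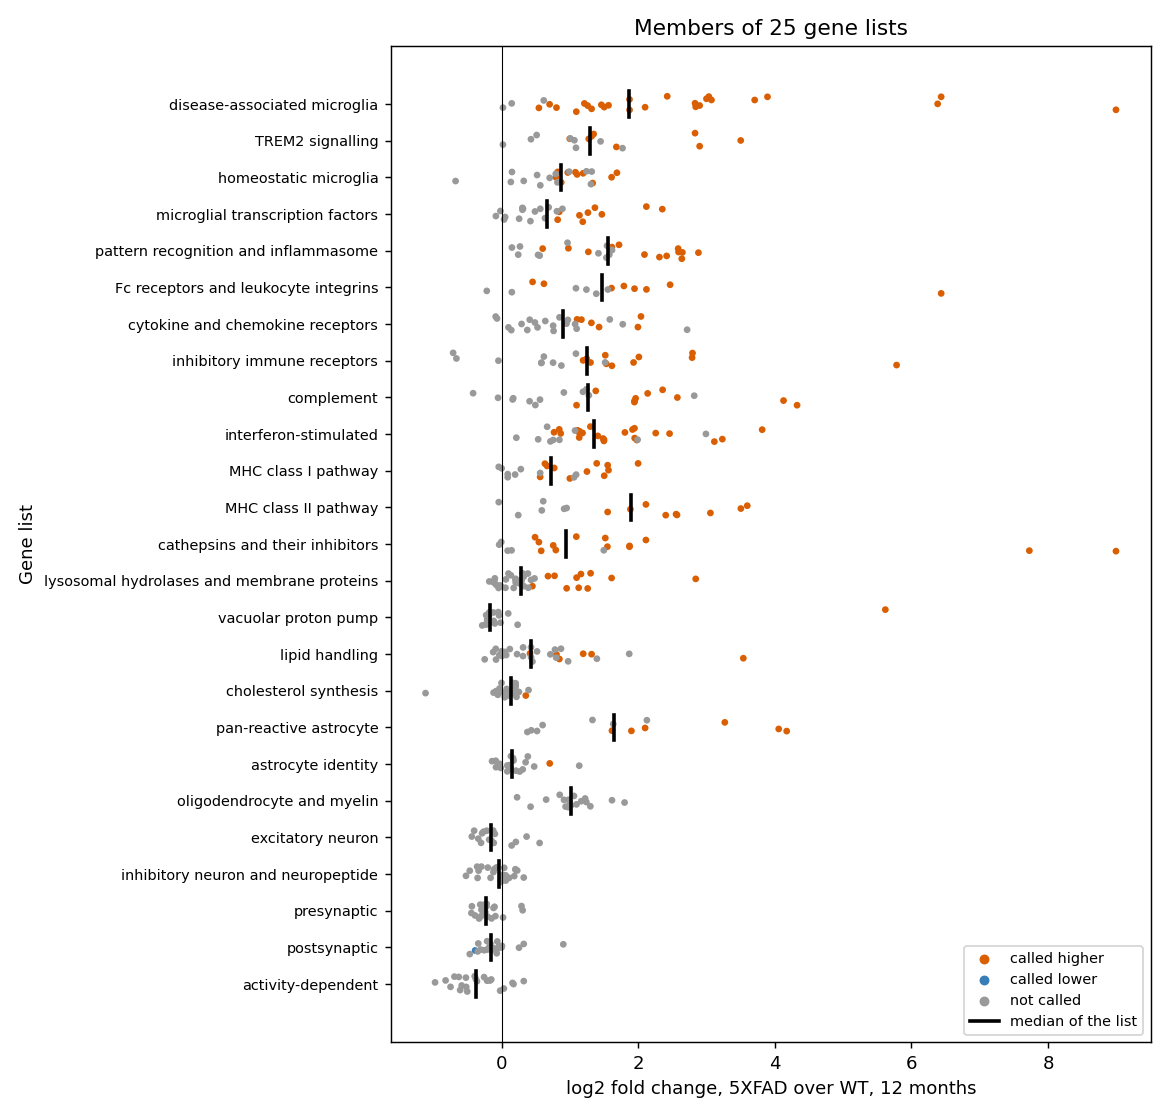
Each point is 1 tested gene of 25 lists, placed by its log2 fold change of 5XFAD over WT at 12 months, with vertical jitter, and black bars mark the median of each list. Microglial, complement, interferon, MHC and reactive astrocyte lists lie to the right of zero with many called members (orange), while neuronal, synaptic and proton pump lists lie at or slightly left of it with 1 called lower (blue) and 1 called higher (Atp6v0d2).

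Reactive astrocyte genes were higher in 5XFAD. Gfap, the main intermediate filament gene of these cells, was at 87.5 and 84.7 CPM in WT and at 762.7, 1825 and 1713 CPM in 5XFAD replicates 1, 2 and 3 (4.06 ± 0.40, adjusted p 0.00103). Serpina3n, a secreted protease inhibitor, was at 16.5 and 19.9 CPM against 84.2, 234.3 and 207.6 CPM (3.27 ± 0.46). Vim, another intermediate filament, was at 27.6 and 27.9 CPM against 53.2, 129.6 and 128.1 CPM (1.90 ± 0.37). For all 3 genes replicate 1 stood above WT and well below the other 5XFAD samples. Of 13 pan-reactive astrocyte genes 6 were called higher and 0 lower (median 1.64), of 11 genes of the neurotoxic (A1) type 7 (median 1.14), and of 12 of the ischaemic (A2) type 1, by name Cd14 (median 0.96). Of the A2 genes 6 had an unadjusted p under 0.05, and DESeq2 and the replicate block called 5 each; a difference between the A1 and A2 lists was not tested. Several A1 genes, H2-D1, H2-T23 and Psmb8 among them, also belong to the class I pathway and are expressed by other cells. Among 20 astrocyte identity genes 1 was called higher, Slc4a4, a bicarbonate transporter, from 80.8 and 83.3 CPM to 127.4, 140.2 and 133.7 CPM (0.71 ± 0.14, adjusted p 0.0154). The median of that list was 0.15, with 7 members higher and 0 lower at an unadjusted p under 0.05 and 4 called higher by DESeq2. Aqp4, the water channel of astrocyte endfeet, had 68.8 and 62.9 CPM in WT and 87.8, 175.9 and 170.8 CPM in 5XFAD without passing (1.14 ± 0.28, adjusted p 0.055). Pan-reactive calls numbered 1 and 2 without WT replicate 2 or 3, A1 calls 0 without either and 3 without 5XFAD replicate 3, Slc4a4 was not called without either WT library or 5XFAD replicate 2, and Gfap was called in each of the 15 alternatives.

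Oligodendrocyte genes varied widely within the groups. Mobp, a protein gene of compact myelin, was at 289 and 683 CPM in WT replicates 2 and 3 and at 762, 1341 and 1344 CPM in 5XFAD replicates 1, 2 and 3 (1.24 ± 0.48, adjusted p 0.195). Mog, a surface protein gene of the myelin sheath, was at 19.6 and 45.3 CPM against 46.3, 71.3 and 85.3 CPM (1.06 ± 0.42, adjusted p 0.21). For both genes WT replicate 3 lay just below 5XFAD replicate 1 and well above WT replicate 2. For Mbp the groups overlapped, with a log2 fold change of 1.00 ± 0.45 (adjusted p 0.268). All 18 myelin genes had positive log2 fold changes with a median of 1.01, but edgeR called 0 of them, with 13 at an unadjusted p under 0.05 and 3 called by DESeq2. The sum of the 18 genes was between 2471 and 5379 CPM in WT and between 4961 and 9618 CPM in 5XFAD. Genes reported in disease-associated oligodendrocytes were called higher in 8 of 14 cases (median 1.31), but C4b, B2m, H2-D1 and Ctsb among them are also genes of other reactive cells. Klk6, a secreted protease of oligodendrocytes, and Il33, an alarmin made by them, had log2 fold changes of 4.02 and 1.37 and were not called. The myelin level of each library was added to the model as an alternative chosen after seeing the data. Then 17 genes were called higher and 0 lower, with 1775 at an unadjusted p under 0.05, against 3999 in the main fit. Thy1, Cst7, Itgax, Clec7a, Ccl3, Ccl4 and Gfap were among the 17. How far the amount of white matter in each piece of cortex bears on the other calls was not tested. Calls in the disease-associated oligodendrocyte list numbered 0 and 2 when WT replicate 2 or 3 was left out, 5 without 5XFAD replicate 2 or 3, and 3 with the 12-month libraries alone.

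Neuronal genes lay slightly lower in 5XFAD, with few calls. Of 16 excitatory neuron genes edgeR called 0, with 3 lower at an unadjusted p under 0.05 and 2 lower by DESeq2; the median was -0.16. Slc17a7 was at 1568 and 1573 CPM in WT and at 1325, 1070 and 1089 CPM in 5XFAD (log2 fold change -0.44 ± 0.12, adjusted p 0.074). Inhibitory neuron and neuropeptide genes had a median of -0.04 and layer 5 genes, which mark the deep projection neurons where 5XFAD amyloid is known to appear early, one of -0.08, with 0 called in both lists by edgeR and by DESeq2 and, in order, 4 and 1 genes at an unadjusted p under 0.05. Of 20 presynaptic genes 17 were negative, with a median of -0.23, and 0 were called by edgeR, against 9 lower at an unadjusted p under 0.05 and 2 lower by DESeq2. Syn1, a protein that tethers synaptic vesicles, was at 840 and 838 CPM against 709, 594 and 561 CPM (-0.43 ± 0.11, adjusted p 0.0529). Over all 21555 genes tested 1362 were lower at that unadjusted threshold. The 23 postsynaptic genes had a median of -0.15, with 6 lower and 0 higher at an unadjusted p under 0.05 and 4 lower by DESeq2. By edgeR this list held 1 call, a lower one, which was lost when WT replicate 2 or 3 or 5XFAD replicate 2 or 3 was left out. In 5XFAD the samples with the most Mbp, replicates 2 and 3, had the lowest Slc17a7 and Syn1, and the part of myelin RNA in these differences was not tested.

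Activity-dependent genes lay lower in 5XFAD without a call, most of all in replicate 3. Arc, whose product acts in the plasticity of synapses, was at 513 and 548 CPM in WT and at 323, 438 and 141 CPM in 5XFAD replicates 1, 2 and 3 (-0.82 ± 0.52, adjusted p 0.438). Fos, a transcription factor gene induced by activity, was at 73 and 64 CPM against 43.5, 64.1 and 19.8 CPM (-0.69 ± 0.56, adjusted p 0.56). Replicate 3 was far below the other 5XFAD samples for both genes, and replicate 2 lay near WT for Fos. Of 22 such genes 18 were negative with a median of -0.38, and 0 were called by edgeR or DESeq2 or reached an unadjusted p under 0.05. For 6 of them all 5XFAD values lay below both WT values, as for 3724 of all 21555 genes tested. The list mean of log2 (CPM + 1) was 5.85 and 5.77 in WT and 5.69, 5.64 and 4.85 in 5XFAD, the last in the library with the most Drd2.

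**Figure D4:**
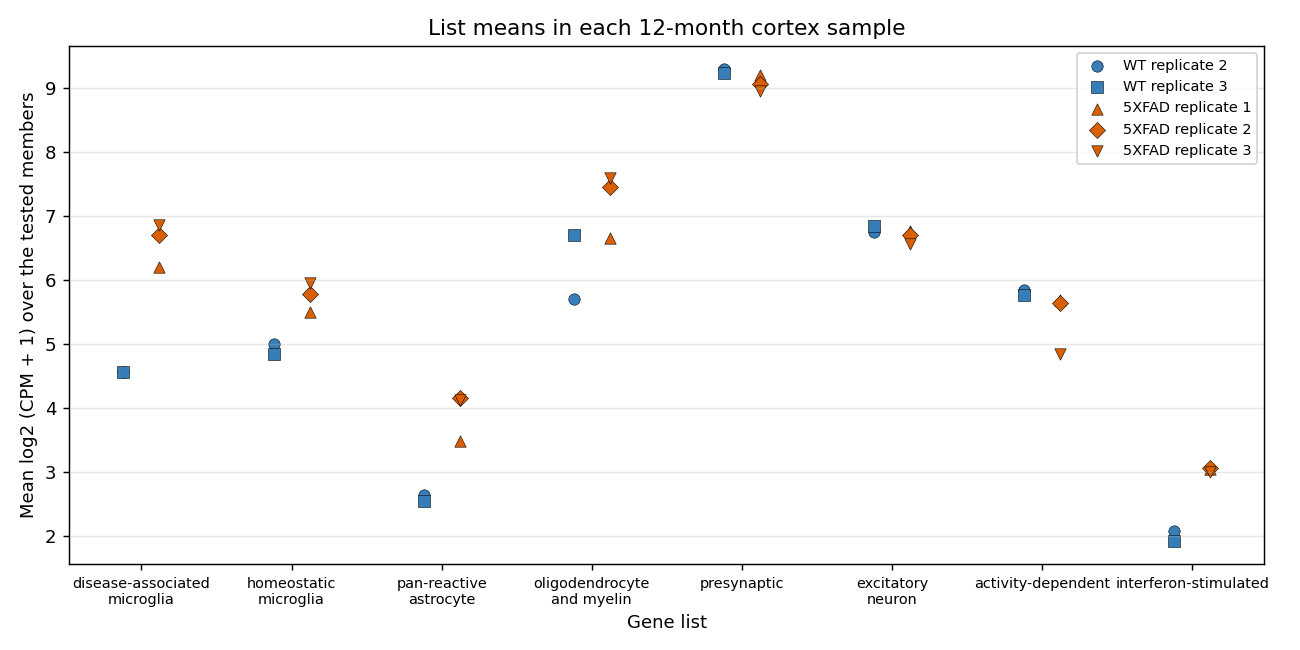
The mean of log2 (CPM + 1) over the tested members of 8 gene lists, with 1 point per 12-month sample, WT in blue and 5XFAD in orange. Microglial, pan-reactive astrocyte and interferon lists separate the groups, and the oligodendrocyte and myelin list overlaps (5.7 and 6.7 in WT, 6.66 to 7.59 in 5XFAD). The activity-dependent list is lowest in 5XFAD replicate 3 (4.85), with replicates 1 and 2 (5.69 and 5.64) slightly below WT (5.85 and 5.77).

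Of the 69 genes called lower 10 fell at least 2-fold. By difference in CPM the largest fall was that of Ppp1r9b, the dendritic spine scaffold spinophilin, from 1106 and 1039 CPM to 819, 738 and 859 CPM (-0.41 ± 0.10, adjusted p 0.0376). Zfp365, a zinc finger protein gene, fell from 790 and 688 CPM to 560, 451 and 508 CPM (-0.55 ± 0.10, adjusted p 0.0136). Cadm3, a neuronal cell adhesion molecule, and Cacnb3, a subunit of voltage-gated calcium channels, fell by 0.41 and 0.43 on the log2 scale. Sept5, a septin of the presynapse, and Stmn1, a regulator of microtubules, fell by 0.47 and 0.32. The groups did not overlap for these genes, but each change was below 2-fold. Ppp1r9b was not called without either WT library or without 5XFAD replicate 2 or 3, nor Zfp365 without either WT library or 5XFAD replicate 2.

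Larger falls by fold were seen at various levels. The transcript D030055H07Rik fell most among called genes averaging 1 CPM or more, from 2.23 and 2.16 CPM to 0.919, 0.528 and 0.801 CPM (-1.55 ± 0.34, adjusted p 0.0269). Nphs1 and Kirrel2, nephrin-family adhesion genes that neighbour each other on the genome, were at 3.05 and 2.97 CPM and at 10.1 and 10.8 CPM in WT, and at 1.78, 0.789 and 1.22 CPM and at 6.85, 3.78 and 4.18 CPM in 5XFAD. Their log2 fold changes were -1.25 and -1.08, with adjusted p of 0.0214 and 0.0239. Wnt9a, a secreted Wnt ligand, fell from 31.6 and 25.8 CPM to 16.2, 15 and 17.7 CPM (-0.81 ± 0.13, adjusted p 0.00749), and Opn3, a light-sensitive opsin, from 7.97 and 5.94 CPM to 3.54, 3.48 and 3.18 CPM (-1.03 ± 0.17, adjusted p 0.0078). Hes5, a target of Notch signalling, and Grm2, a metabotropic glutamate receptor gene, fell by 0.97 and 0.82. Lars2, which charges the mitochondrial tRNA for leucine, stood at 302 and 195 CPM in WT and at 119.6, 114.6 and 122.9 CPM in 5XFAD (-1.06 ± 0.24, adjusted p 0.0322). Its WT values differed from each other by more than the 5XFAD values did, and it was not called when any one of the 5 libraries was left out. Of 17 mitochondrial tRNA synthetase genes it was the 1 called, and the median of the list was -0.03. It was also the 1 call in a list related to ribosomal RNA, whose 6 tested members were all negative (median -0.57). There mt-Rnr1, a mitochondrial ribosomal RNA, was at 2924 and 2877 CPM in WT and 2430, 2303 and 2568 CPM in 5XFAD and was not called (-0.25 ± 0.13, adjusted p 0.318). The part of ribosomal RNA reads in the value of Lars2 was not tested. Wnt9a and Opn3 were not called without WT replicate 2, and D030055H07Rik, Nphs1, Kirrel2 and Grm2 were not called without either WT library or without 5XFAD replicate 2 or 3. Hes5 was not called in 9 of 15 alternatives, among them library totals alone and the omission of either WT library or of 5XFAD replicate 1 or 2.

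Transcripts of other cell types were sought among markers of leukocytes, vessels, meninges and neighbouring regions. T cell genes appeared at very low levels: Cd3g, a chain of the T cell receptor complex, had 0 counts in both WT libraries and 139 in 5XFAD, at least 19.3-fold higher (lower end of the exact 95% counting interval, 15.5), and was at 0.109, 0.202 and 0.449 CPM (adjusted p 0.0135). Nkg7, a granule protein of cytotoxic cells, had 155 counts against 1, 64.7-fold more after scaling (95% counting interval, 11.4 to 2570). Cd8b1, a chain of the CD8 co-receptor, had 83 against 1, 34.6-fold more (interval, 6.04 to 1380). The call of Cd8b1 was kept in 3 of 14 alternatives and was lost without any one of the 5 libraries. These 3 and Thy1, which is part of the transgenes, were the 4 of 24 T and natural killer cell genes called higher, and Cd3e and Cd3d, also chains of the receptor complex, had 67 against 3 and 71 against 4 counts and were not called. In the same list 6 genes were negative, among them Trbc2, a constant chain of the T cell receptor, at 13.2 and 16 CPM in WT and 9.78, 9.14 and 10.5 CPM in 5XFAD (-0.57 ± 0.15, adjusted p 0.0543); 1 gene was called lower with RLE size factors, with either other filter and by DESeq2. Calls of higher genes in this list numbered 2 without 5XFAD replicate 2 or 3, with Thy1, called in each of 15 alternatives, among them. Nkg7 was not called without 5XFAD replicate 2 or 3, nor Cd3g with the 12-month libraries alone. Both also lost their calls without either WT library, which leaves 1 WT sample. Neutrophil and monocyte, perivascular macrophage, vascular and meningeal or choroid plexus lists had 0 members called by edgeR and by DESeq2. At an unadjusted p under 0.05 they had, in order, 3 higher, 2 higher, 2 lower and 1 higher. Of 7 tested B cell genes 1 was called higher, Cd22, at 0.532 and 0.384 CPM in WT and 1.9, 3.84 and 3.78 CPM in 5XFAD (2.79 ± 0.53, adjusted p 0.015). Cd22 was not called without 5XFAD replicate 2. Striatal and other region markers summed to 256 and 412 CPM in WT and to between 269 and 1008 CPM in 5XFAD, the highest in replicate 3, and 1 of 18 was called higher, Prox1, a homeobox gene of the dentate gyrus (1.02 ± 0.24, adjusted p 0.0406), which was not called without either WT library or 5XFAD replicate 2 or 3. Proliferation genes had 0 of 22 called by edgeR, 8 higher at an unadjusted p under 0.05 and 4 higher by DESeq2, with a median of 0.27.

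Of 44 orthologues of genes at human Alzheimer's disease risk loci 11 were called higher and 0 lower, with a median of 0.23. They were Trem2, Treml2, Ctsh, Inpp5d, Abi3, Ctsb, Grn, Abca1, Spi1, Apoe and Rin3. Treml2, a receptor encoded near Trem2, was at 0.532 and 0.154 CPM in WT and 2.89, 4.03 and 4.43 CPM in 5XFAD (3.46 ± 0.56, adjusted p 0.0077), and Abi3, an actin regulator of microglia, rose by 1.37 ± 0.29. Clu, the clusterin gene of astrocytes, was at 622 and 645 CPM against 764, 1079 and 1097 CPM and was not called (0.63 ± 0.18, adjusted p 0.0769). Picalm and Cd2ap, genes of endocytosis, had log2 fold changes of 0.28 ± 0.08 and 0.34 ± 0.12 and were not called. Without WT replicate 2 or 3 the calls numbered 1 and 0, and in the absence of 5XFAD replicate 2 or 3 they numbered 3.

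Set beside 6 months, the 12-month differences overlapped with those called at the younger age. At 6 months 418 of all 21555 genes tested were called. Of 659 genes called at 12 months 320 (48.6%) were among these 418 in the same direction (76.6% of them). They were 315 of the 590 higher and 5 of the 69 lower genes. Gfap had log2 fold changes of 3.31 at 6 months and 4.06 at 12 months, Serpina3n 1.93 and 3.27, C4b 3.45 and 4.33, and Apoe 0.39 and 0.80. Clec7a, at 6.65 and 6.38, and Ccl4, at 6.99 and 5.61, were not larger at 12 months. The difference between the effects at 12 and 6 months was called for 0 genes of 21555 (0%), with 684 at an unadjusted p under 0.05 (3.17%) and 0 called by DESeq2. The difference between 12 and 3 months was also called for 0 genes (0%), with 2240 at an unadjusted p under 0.05 (10.4%) and 207 called by DESeq2, and 9 were called without 5XFAD replicate 1. A gene called at 12 months and not at 6 is therefore not shown to differ between these ages.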

How the data were processed

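RNA-seq counts of mouse cortex were analysed. Per the labels' protocols, a stranded kit for total RNA with ribosomal RNA removal was used, with paired reads of 100 bases, whereas the molecule field of the labels reads polyA RNA. The authors deposited raw counts per Ensembl gene for all 15 libraries, without normalization. Per the submitters' processing notes, CASAVA, STAR and BWA were used with the mm9 build. The counting program, its strand setting and its treatment of shared reads are not given in the sources used here, so reads of overlapping or near-identical genes cannot be told apart. Symbols were matched by identifier for 32919 of 37991 genes.

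All 15 libraries in 6 groups of genotype and age entered 1 edgeR model (4.0.16, R 4.3.3, limma 3.58.1), so that the spread was shared. Genes were kept by filterByExpr (minimum count 10, minimum total 15), which left 21555 and removed 16436, libraries were scaled by TMM, and the robust quasi-likelihood test was used with a prior count of 0.125. A call needed a Benjamini-Hochberg adjusted p below 0.05. The SE is the absolute log2 fold change over the root of the F statistic and is approximate. The script was tested on simulated counts.

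The 52 gene lists, their members, the comparison and the rule for named genes were chosen with earlier results of these data known. The rule took App and Thy1, the 15 largest increases and decreases by fold among called genes averaging 1 CPM or more without overlap of the groups, the 10 largest by CPM in each direction, and, from each list, the members of smallest p, 5 at most. Other list members, Mbp, Drd2 and Xist were named after their values were seen. Some genes the rule picks are not reported here. Lists share members, and they are described by counts and medians without a test of the list.

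Library depth makes counting error small except for rare transcripts. Where a group had 10 counts or fewer, most named genes are given a ratio with its exact 95% counting interval, or a bound from a floor of 3 counts. Some are not, Ccl4, Cd3e and Cd3d among them. Such intervals and bounds cover counting error only, since reads without molecular identifiers are not independent molecules. Alternatives were DESeq2 1.42.0, other scaling, other filters, the 12-month libraries alone, a replicate block, sex as a covariate and each 12-month library left out.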

Additional observations from a re-analysis of the deposited data

How the results depend on the processing

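Against 590 higher and 69 lower genes at 12 months, RLE size factors, a filter on totals, a filter of 1 CPM in 2 libraries and a model of the 12-month libraries alone gave 524 to 619 higher and 46 to 95 lower; library totals alone gave 700 and 41. The counts hide turnover: the 12-month model shared 423 of the 590 and 19 of the 69. DESeq2 called 1145 and 344, and sex as a covariate 981 and 181. Leaving out 1 of the 5 libraries gave 22 to 867 higher and 0 to 156 lower, the fewest without a WT library, where the lone WT sample is assumed to vary like the other groups. With 2 alternatives chosen after seeing the data, 5XFAD reduced to replicate 1 and the myelin level as a covariate, the counts were 13 and 17 higher and 0 lower in both. No called gene reversed its direction in a setting that tested it, and 7 of 131 named genes were called in all 15 alternatives. Since the groups did not overlap for any called gene, a reversal was hardly possible, and the kept direction adds no support. The cause of the shifts in the counts was not tested.

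A replicate block gave counts of 1162 and 275, and with it 212 genes differed in effect between 12 and 3 months. Whether the numbers pair the libraries is not settled. Deviations from the group means of same-numbered libraries correlated at 0.328 in both pairs at 3 months. With 2 libraries per group the deviations are mirror images, so this is 1 value and not 2. The correlations were 0.597, 0.213 and 0.187 at 6 months and -0.036 and 0.128 for replicates 2 and 3 at 12 months. Deviations within a group are tied to each other, so a count of these values cannot decide the question. By Xist and Ddx3y replicate 1 was the male library in each of the 5 groups that hold one. Pairing by number and shared sex therefore cannot be told apart for replicate 1. The difference between 12 and 3 months was called for 207 genes by DESeq2 and for 0 to 9 when 1 library was left out. The difference between 12 and 6 months was called for 0 genes in each setting run.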

Other observations

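Genes of oxidant defence and iron handling formed a further group that was higher at 12 months. Of 25 tested genes 9 were called higher by edgeR and 0 lower, with a median log2 fold change of 0.43. Cybb, the catalytic subunit of the phagocyte oxidase that makes superoxide, was at 0.886 and 0.634 CPM in WT replicates 2 and 3 and at 5.84, 6.67 and 6.42 CPM in 5XFAD replicates 1, 2 and 3 (3.05 ± 0.38, adjusted p 0.00242). Its partners Cyba and Ncf1 rose by 2.27 ± 0.38 and 1.46 ± 0.33, so subunits of 1 enzyme were called together. Slc11a1, a metal transporter of the phagosome, rose by 2.39 ± 0.31, and Hmox1, which degrades haem and frees iron, by 1.09 ± 0.18. Mt1 and Mt2, the metallothioneins that bind zinc and copper, were higher in all 5XFAD samples by 0.74 ± 0.16 and 1.02 ± 0.21. Calls in this list numbered 1 and 0 when WT replicate 2 or 3 was left out and 5 without 5XFAD replicate 2 or 3.

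Stress pathways of protein folding showed little. Of 21 genes of the unfolded protein and integrated stress responses 1 was called higher, Sdf2l1, a chaperone partner of the endoplasmic reticulum, from 6.83 and 8.42 CPM to 12.2, 12 and 14.8 CPM (0.77 ± 0.18, adjusted p 0.0315), and it was not called without either WT library or 5XFAD replicate 2 or 3. Of 14 heat shock genes 0 were called by edgeR and by DESeq2, with 1 higher and 2 lower at an unadjusted p under 0.05. Of 16 circadian clock genes 0 were called by edgeR, with 2 higher and 1 lower at that threshold and 1 called lower by DESeq2. Over all 21555 genes tested 2637 were higher and 1362 lower at the same threshold. The medians of the heat shock and clock lists were -0.10 and 0.01.

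Several called genes that are almost silent in WT cortex were named after their values were seen. Cyp21a1, the steroid 21-hydroxylase gene, which lies beside C4a on chromosome 17, had 200 counts in 5XFAD against 2, 41.7-fold more after scaling (95% counting interval, 11.4 to 347), and Cyp21a2-ps, a pseudogene beside C4b, had 157 against 1, 65.5-fold more (interval, 11.6 to 2600). Olfr110, an olfactory receptor gene, had 249 counts against 3 (34.6, interval 11.7 to 169), and Dcstamp, which encodes a protein of osteoclast fusion, 347 against 1 (145, interval 25.8 to 5730). Rgs1, a regulator of chemokine receptor signalling, had 444 against 4 (46.3, interval 18 to 171). Glycam1, a mucin-like ligand of L-selectin, had 204 against 0, at least 28.4-fold higher (lower end of the exact 95% counting interval, 22.9).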
